A study of Mus musculus with 5 samples.

Results

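The mammary endothelial cells were barcodes selected on measured values in all 5 libraries. A barcode was a member when *Pecam1*, *Cdh5*, *Egfl7*, *Flt1* and *Kdr* summed to at least 4 unique molecular identifiers (UMIs, each standing for 1 captured mRNA molecule). A member also had *Col1a1*, *Col1a2*, *Col3a1* and *Dcn* below 50 and *Epcam* and *Krt18* below 5 per 10000 UMIs, no *Ptprc* UMI, and at most 15% mitochondrial UMIs. The rule found 182 members among 14344 barcodes, or 1.27%. These genes chose the members, so their levels are given as a description.

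Endothelial cells line the blood vessels of the mammary gland, and in capillaries they form a single thin layer held together by junction proteins such as VE-cadherin. They sense vascular endothelial growth factor through the receptors FLT1 and KDR, and in fat they take up fatty acids with the help of GPIHBP1, CD36 and FABP4. Capillaries are wrapped by pericytes, contractile support cells that share the basement membrane with the endothelium and express *Rgs5*, *Notch3* and *Kcnj8*.

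Female BALB/cj mice were ovariectomized, treated from 20 weeks later for 1 week, and were 30 weeks old, and each group was profiled as 1 library of the digested 4th mammary gland. The OVX group received vehicle. OVX_E2 received 17β-estradiol (E2, 1 µg per animal by daily injection), and OVX_E2_P4 received E2 with progesterone (P4, 0.1 mg per animal). OVX_E2_PBDE and OVX_E2_P4_PBDE had the same hormones and a diet with 3 polybrominated diphenyl ethers (PBDE): BDE-47 at 7.1, BDE-100 at 0.4 and BDE-153 at 0.9 mg/kg, while the other groups ate matched food with the solvent. All mice lacked ovaries. Digestion was followed by red cell lysis and removal of dead cells, no sort selected a cell type, and the lymph node had been removed. How many mice entered each library is not given in the sources used here. With 1 library a group no difference could be tested against the variation between animals, and every interval below is a 95% interval for counting error alone. Library numbers of the samples with PBDE lay apart from those of the other 3, so a batch that followed PBDE cannot be told apart from PBDE.

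The libraries held 20293934 (OVX), 29590862 (OVX_E2), 42012988 (OVX_E2_PBDE), 32648416 (OVX_E2_P4) and 19982067 UMIs (OVX_E2_P4_PBDE), and any 5 values given together below follow this order of libraries. Members contributed 1475789 of the 144528267 UMIs. A member held a median of 7311, 9236, 8177, 6183 and 5108 UMIs, with medians of 2720, 3030, 2722, 2244 and 2012 genes. Across libraries 80 cell barcodes occurred more than once, at most 15 for a pair of libraries, and 0 of them belonged to members of both.

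Members made up 0.933% of the OVX barcodes (29 of 3109; exact binomial interval 0.626 to 1.34%), 1.75% in OVX_E2 (39 of 2233; 1.24 to 2.38%) and 1.58% in OVX_E2_PBDE (56 of 3536; 1.2 to 2.05%). They made up 0.483% in OVX_E2_P4 (15 of 3107; 0.27 to 0.795%) and 1.82% in OVX_E2_P4_PBDE (43 of 2359; 1.32 to 2.45%). OVX_E2_P4 was lowest and OVX next, the OVX interval overlapped that of every other library, and the intervals of the other 3 overlapped each other. This order depended on the denominator and the limits: of non-epithelial barcodes members made up 1.07%, 4.25%, 2.78%, 2.14% and 5.39%, and with that denominator, as in the count by markers alone given below, OVX was lowest. OVX_E2 exceeded OVX by 0.814 percentage points (0.17 to 1.52), and OVX_E2_P4 lay 1.26 points below OVX_E2, a difference of -1.26 (-1.93 to -0.673). With PBDE the difference between P4 and no P4 was 0.239 points (-0.446 to 0.973). The difference between PBDE and no PBDE was -0.163 points (-0.904 to 0.523) without P4 and 1.34 points (0.75 to 2) with P4. These intervals hold no variation between mice or digests. Shares of a suspension also depend on how many cells of other kinds were released, and fewer endothelial cells and more of the others cannot be told apart.

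The limit on epithelial genes bore unevenly on the libraries. Without any limit but the 4 marker UMIs there were 252 barcodes, 31, 47, 76, 38 and 60 by library. Of the 70 that were not members, 50 exceeded the epithelial limit, 13 held *Ptprc*, 11 exceeded the fibroblast limit and 0 the mitochondrial one. In OVX_E2_P4, 21 of 38 (55.3%) exceeded the epithelial limit and in OVX 0 did, against 4, 11 and 14 in the libraries OVX_E2, OVX_E2_PBDE and OVX_E2_P4_PBDE. Barcodes with fibroblast genes also differed: 3.16%, 16.9%, 9.03%, 41.8% and 26.8% of them exceeded the epithelial limit, OVX_E2_P4 being highest. Counted by markers alone, the shares were 0.997%, 2.1%, 2.15%, 1.22% and 2.54%, and OVX_E2_P4 differed from OVX_E2 by -0.882 points (-1.65 to -0.167). The part of epithelial RNA in the suspension in these shares was not tested.

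**Figure D1:**
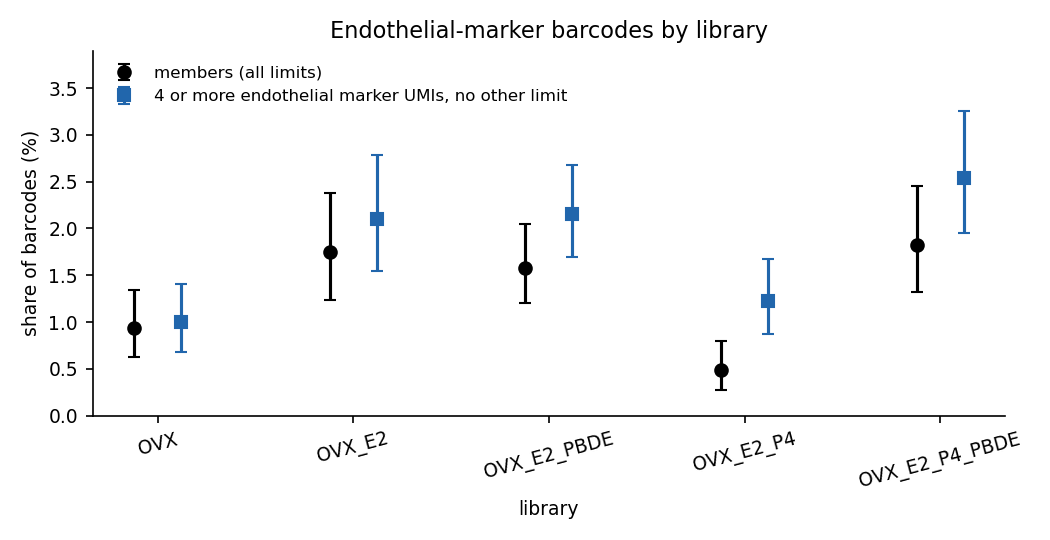
Share of barcodes (%) in each library that were members (black circles) or had at least 4 endothelial marker UMIs with no other limit (blue squares), with exact 95% binomial intervals. OVX_E2_P4 had 0.483% members but 1.22% marker-positive barcodes, the widest gap in proportion.

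The marker limit passed through a thinly filled range of values. Among all barcodes, 12483 held 0 UMIs of the 5 markers and 28 held 3, just below the limit. Another 17 barcodes held 4 to 8 UMIs, of which 3 were members. Of the 70 barcodes past the marker limit that the other limits left out, 56 held more than 8 marker UMIs, so members and these barcodes overlap on the markers. The median member held 30, 35, 34.5, 30 and 19 marker UMIs. *Plvap*, the protein of the diaphragms that span capillary pores, was not in the rule. Its level was 2580, 2394, 2549, 2952 and 2360 counts per 1000000 member UMIs (CPM), against 31.1 CPM in 6270 barcodes with fibroblast genes. *Gpihbp1*, the capillary anchor of lipoprotein lipase, measured 708, 728, 804, 780 and 489 CPM, with 0.673 CPM in fibroblast barcodes. With each barcode thinned to 3000 UMIs, *Plvap* was seen in 96.7% of members and 9.07% of fibroblast barcodes, and *Gpihbp1* in 71.4% and 0.287%; unthinned, the members' shares were 97.8% and 86.8%. Both genes lay outside the rule, but members were chosen by other endothelial genes and by low fibroblast genes. These shares at equal depth therefore describe the members and test nothing.

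The members had several transcripts of fat-tissue capillaries, although the capillary gene *Car4* was seen in only 2.2% of thinned members. *Fabp4*, the fatty acid carrier, was among their most abundant mRNAs at 9147, 9302, 12438, 12925 and 7950 CPM, and was seen in 100% of thinned members and 18.4% of thinned fibroblasts. *Cd36*, the fatty acid translocase, measured 1281, 1134, 1425, 1846 and 1533 CPM. *Rbp7*, a retinol-binding protein of capillary endothelium, measured 1168, 1006, 1304, 632 and 1005 CPM. Among genes with at least 200 member UMIs, the highest ratio to the highest of 3 reference classes (fibroblast, epithelial and *Ptprc*-positive barcodes) was that of *Gpihbp1* at 926-fold. Behind it stood *Adgrl4* at 703-fold, *Esm1* at 666-fold, *Apold1* at 653-fold, *Esam* at 499-fold and *Ptprb* at 450-fold, genes of endothelial adhesion receptors, junctions and vessel growth. Because members were chosen by endothelial genes, these ratios describe them and test nothing.

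Markers of other vessel types were mixed: 9 of 17 arterial and 4 of 12 venous markers were abundant enough to be ranked in the comparison of pooled E2 libraries with OVX, described below. *Selp*, the P-selectin of veins, had 0, 12, 12, 0 and 9 UMIs in 6 members, *Ackr1* had 12 UMIs in all and *Vwf* 15. *Lrg1*, also listed as venous, was present in all libraries at 400, 509, 769, 741 and 667 CPM, *Nr2f2*, a venous transcription factor, at 165, 147, 140, 109 and 147 CPM, and the arterial connexin *Gja4* at 174, 184, 184, 178 and 126 CPM. *Cldn5*, a tight junction gene of many endothelia, was seen in 8.79% of thinned members. Of 10 lymphatic markers 9 were detected and 1 was ranked in that comparison, *Flt4*, a growth factor receptor, with 13, 21, 23, 3 and 9 UMIs in 8, 12, 19, 2 and 8 members. *Prox1*, the transcription factor of lymphatic endothelium, had 1, 16, 4, 2 and 1 UMIs, and *Lyve1* had 1 UMI in each library. A single OVX_E2 barcode of 24884 UMIs held 14 of the 24 *Prox1*, 24 of the 25 *Mmrn1* and 7 of the 7 *Nts* UMIs, and 0 of *Lyve1*. The adipocyte genes *Adipoq*, *Plin1*, *Lep*, *Retn* and *Cidec* were at 0 in members, as were *Ptprc*, which the rule set, and *Csf1r*, *C1qb* and *Adgre1* of macrophages. Other genes of both lists had UMIs: of 8 adipocyte markers 3 were detected (*Plin4* 10, *Car3* 3 and *Cfd* 1 UMIs in all members), and of 11 myeloid markers 7, led by *Cd14* with 32, *Lyz2* with 22, *Fcer1g* with 15 and *Cd68* with 14. The myeloid list summed to 52.1, 42, 78.4, 29.6 and 95.3 CPM, against 9981 CPM in barcodes with *Ptprc* and 60.3 CPM in fibroblast barcodes.

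Pericyte transcripts ran through nearly all members, which goes against a pure endothelial label. The 6 genes *Rgs5*, *Notch3*, *Kcnj8*, *Abcc9*, *Des* and *Higd1b* together gave at least 1 UMI in 172 of 182 members and at least 3 in 159 (87.4%), against 55 of 6270 fibroblast barcodes (0.877%). Of epithelial barcodes, 3.75%, 4.69%, 6.24%, 2.57% and 2.39% by library had at least 3. *Rgs5*, a regulator of G-protein signalling typical of pericytes, measured 413, 418, 569, 642 and 333 CPM, and 0.621 CPM in fibroblast barcodes. It came from 95, 179, 276, 65 and 77 UMIs. At 3000 UMIs, *Rgs5* was seen in 42.3% of members and 0.112% of fibroblasts, *Abcc9* in 56% and 6.35%, and *Des* in 38.5% and 0.159%. *Higd1b* was seen in 26.4% of members and 0% of fibroblasts. Not every gene of mural cells was high: *Cspg4*, another pericyte gene, lay between 4.34 and 26.0 CPM. Of contractile smooth muscle genes, *Acta2* lay between 13.0 and 51.6 CPM, *Myh11* between 9.87 and 18.6 CPM, and *Tagln* measured 43.4, 107, 51.6, 59.2 and 117 CPM.

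Barcodes with pericyte genes and few endothelial UMIs were rare. Only 8 barcodes of the whole series had at least 8 UMIs of the 6 pericyte genes and fewer than 4 endothelial UMIs, and 4 of these passed the other limits, while 118 members had at least 8. The median member held 11 pericyte UMIs and the highest 64. Per 10000 UMIs the medians were 16.7, 14.0, 14.5, 14.3 and 10.8 pericyte UMIs, beside 41.9, 35.1, 40.3, 36.8 and 36.1 endothelial UMIs, and the pericyte median was the smaller in every library. Across the 182 members the 2 sums had a Spearman coefficient of -0.189, given as a description since both are shares of 1 total. Members with at least 3 pericyte UMIs had a median of 7389 UMIs and the other 23 had 6186. Whether these barcodes held a cell of each kind was not tested, and levels below belong to all transcripts of a barcode together.

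**Figure D2:**
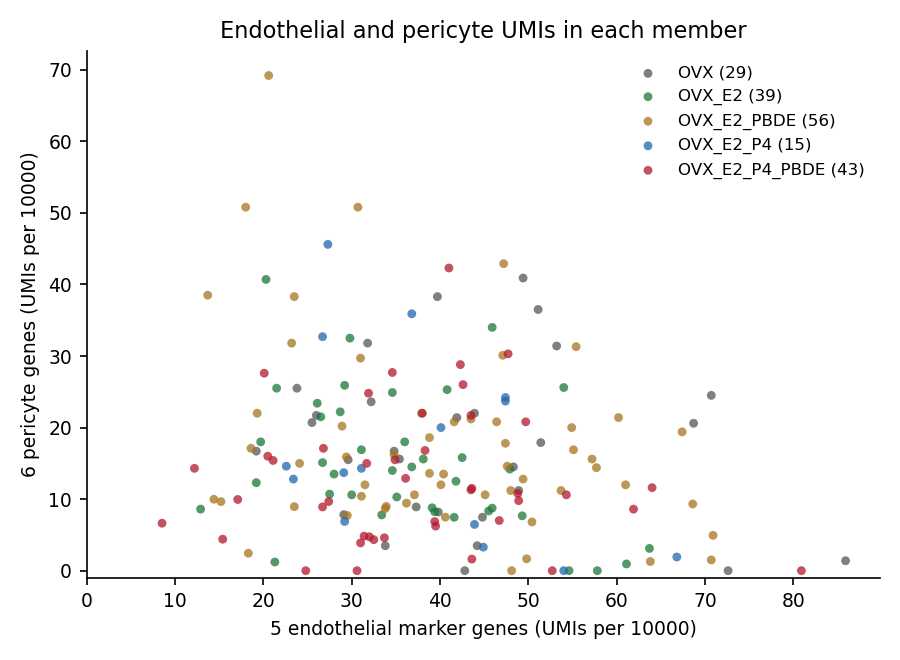
Each point is 1 of 182 members, with UMIs per 10000 of the 5 endothelial marker genes on the x axis and of the 6 pericyte genes on the y axis, coloured by library. Most members had both, and 10 members had 0 pericyte UMIs.

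The 23 members with fewer than 3 pericyte UMIs gave a view of what goes with pericyte genes, beside the 6 genes that defined them. Endothelial and capillary genes outside the rule went both ways. *Plvap* (4377 against 2301 CPM in the other members), *Gpihbp1* (997 against 685 CPM) and *Rbp7* (1509 against 1058 CPM) were higher. Also higher were *Esm1* (792 against 488 CPM) and *Lrg1* (778 against 600 CPM). *Cd36* (1420 against 1358 CPM) was nearly level, and *Fabp4* (8679 against 10529 CPM), *Mcam* (54.6 against 85.8 CPM) and *Cldn5* (47.8 against 114 CPM) were lower. The *Mcam* level of the 23 members came from 8 UMIs in 6 of them. Of the 151 *Cldn5* UMIs of the other members, 70 came from 1 OVX_E2 barcode. The 23 members had far lower levels of *Dlk1*, a Delta-like protein, with 0 of 302 UMIs and thus 0 against 227 CPM. The noncoding RNA *Meg3*, a neighbour of *Dlk1* in an imprinted locus, measured 27.3 against 555 CPM. *Ndufa4l2*, a nuclear gene for a mitochondrial protein known from pericytes, measured 6.83 against 210 CPM, *Cyp4b1* 13.7 against 223 CPM, and N-cadherin *Cdh2* 0 against 49.6 CPM. *Dlk1* and *Meg3* were thus nearly missing where the pericyte genes were, and the choice of these genes was made after their values were seen.

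**Figure D3:**
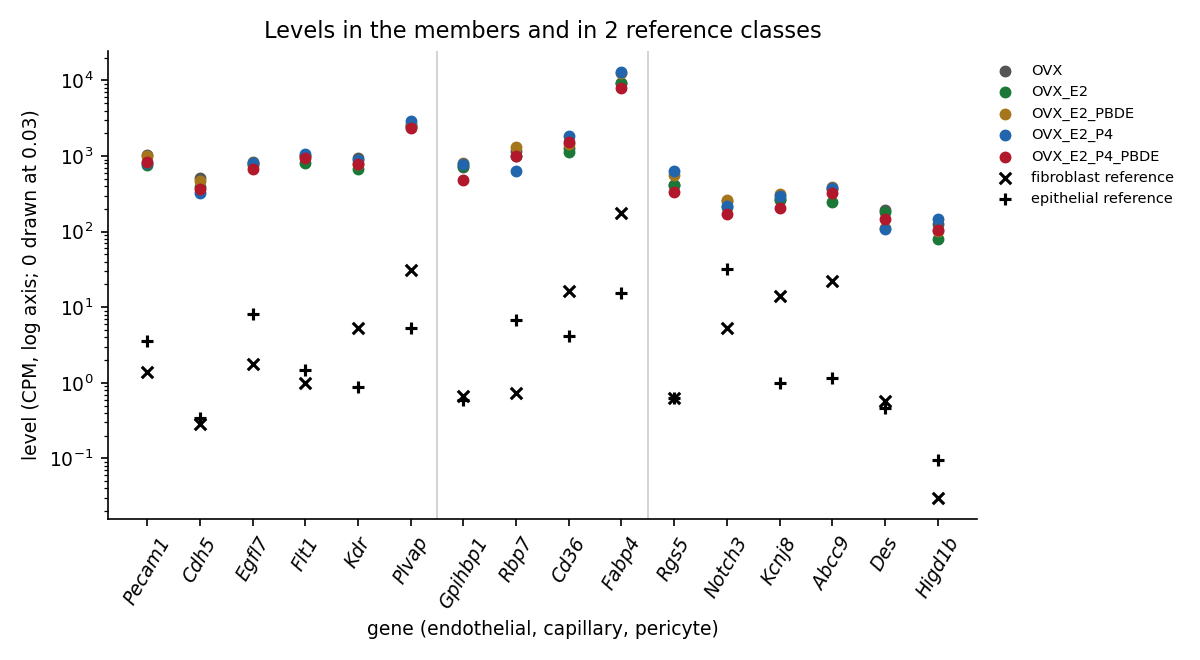
Levels (CPM, log axis) of endothelial, capillary and pericyte genes in the members of each library (coloured circles) and in fibroblast (crosses) and epithelial (plus signs) barcodes, with a level of 0 drawn at 0.03. All 6 pericyte genes lay above both reference classes in every library.

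For comparisons between libraries, UMIs were summed over members and compared as CPM, with 1 UMI added to each side. A gene was ranked when both sides together had at least 50 UMIs and its level over all members was at least 0.5 times the highest reference class. A gene past 2-fold had a ratio of at least 2 or at most 0.5, which is a size and not a test. OVX_E2_P4 had fewer than 20 members, so it had no comparison of its own at these limits and entered as 1 of the 4 pooled libraries with E2; its ratios under a wider limit are given at the end. The comparisons share libraries: OVX serves both E2 comparisons, OVX_E2 serves E2 and PBDE, and OVX_E2_PBDE serves PBDE and P4 with PBDE.

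E2 was compared first, as hormone replacement after ovariectomy. With the 4 E2 libraries pooled (153 members) against OVX (29 members), 57 of 3653 ranked genes (1.56%) were past 2-fold higher and 75 (2.05%) past 2-fold lower. OVX_E2 alone (39 members) against OVX gave 22 higher (1.23%) and 27 lower (1.50%) of 1795 ranked genes. The split depended on scaling: factors from the trimmed mean of M-values (TMM) gave 72 higher and 42 lower for the pooled E2 libraries and 31 and 18 for OVX_E2 alone, and median-of-ratios factors gave 69 and 50, and 26 and 24. TMM moved the median log2 ratio by 0.12 in the pooled comparison and by 0.11 in the other, so ratios near 1 have no firm direction. Adding 5 UMIs in place of 1 to each side, which weighs more on the shallower OVX side, gave 8 higher and 177 lower for the pooled E2 libraries and 10 and 27 for OVX_E2 alone. The median log2 ratio of all ranked genes was -0.11 and -0.04. Fibroblast transcripts in members differed along with E2. The 10 fibroblast markers, 4 of them used in the rule and 0 of them ranked, summed to 2523, 1192, 1126, 1126 and 1459 CPM in members, against 31607 CPM in fibroblast barcodes, and the most abundant, *Dcn*, measured 817, 215, 225, 197 and 359 CPM. The part of fibroblast RNA in the E2 comparisons was not tested. Leaving 1 E2 library out of the pool gave 32 higher and 39 lower without OVX_E2, 34 and 37 without OVX_E2_PBDE, 49 and 65 without OVX_E2_P4, and 48 and 46 without OVX_E2_P4_PBDE. Of the 132 genes, 62, 54, 115 and 97 still had enough UMIs to be ranked in these, and 49 were ranked in all 4. Of these 49, 23 (12 higher, 11 lower) were past 2-fold in the same direction in all 4.

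*Esm1*, endocan, a secreted proteoglycan of vascular endothelial growth factor-stimulated tip cells, was past 2-fold lower in both E2 comparisons. It had 272, 142, 185, 77 and 89 UMIs. These came to 1181, 331, 382, 760 and 385 CPM, so OVX was highest, OVX_E2_P4 second and the other 3 close together. The pooled E2 libraries had 0.335 of the OVX level (0.288 to 0.39; log2 ratio -1.58), and OVX_E2 alone had 0.281 (0.227 to 0.345; log2 ratio -1.83). Over the alternatives tried the pooled log2 ratio lay between -1.70 and -1.35. At 3000 UMIs *Esm1* was seen in 79.3%, 46.2%, 42.9%, 53.3% and 65.1% of members, again with OVX highest. Fibroblast barcodes had at most 0.98 CPM. The gene lies at chr13:113209659-113218098 on the plus strand of mm10 (GENCODE annotation).

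*Penk*, the precursor of enkephalin peptides, had 138, 78, 47, 52 and 61 UMIs, or 599, 182, 96.9, 513 and 264 CPM. OVX was highest, but 36 of the 52 UMIs of OVX_E2_P4 came from 1 barcode. The pooled E2 libraries had 0.318 of the OVX level (0.257 to 0.396). *Penk* was lower with E2 in fibroblast barcodes too, at 286, 106, 98, 112 and 95.2 CPM, and at equal depth it was seen in 38.9%, 20.6%, 19.3%, 19.7% and 16.1% of these. In members the shares were 58.6%, 17.9%, 19.6%, 20% and 23.3%. In each library with E2 the members' interval held the fibroblast share, while in OVX members had the higher share (38.9 to 76.5%, against 37 to 40.9% in fibroblasts), with intervals that still met. Epithelial barcodes had 25.2, 4.53, 4.92, 3.58 and 8 CPM of *Penk*, well below members in every library and likewise highest in OVX.

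*Mgp*, matrix Gla protein, an inhibitor of calcification and of bone morphogenetic protein signalling, was higher with E2. It had 13, 92, 100, 16 and 39 UMIs, or 56.5, 215, 206, 158 and 169 CPM, and all 4 E2 libraries lay above OVX. The pooled ratio was 3.27 (2.02 to 6.69). Fibroblast barcodes showed a similar step, from 59.2 CPM in OVX to 178, 158, 249 and 126 CPM. *Il6*, the interleukin, was higher in members (42, 170, 244, 23 and 119 UMIs; 182, 397, 503, 227 and 515 CPM), with a pooled ratio of 2.39 (1.79 to 3.43). In fibroblast barcodes *Il6* was not, with 157, 109, 148, 127 and 118 CPM. *Il6* was concentrated: its UMIs came from 7, 11, 27, 4 and 16 members, with 61 of 170 in 1 OVX_E2 barcode and 20 of 23 in 1 OVX_E2_P4 barcode, and the pooled log2 ratio was 1.26 with and 1.96 without each library's top barcode.

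Other genes past 2-fold in the pooled comparison included the water channel *Aqp1* (148, 217, 427, 128 and 286 CPM), with a ratio of 2.01 (1.45 to 3.02), although OVX_E2_P4 lay below OVX and the log2 ratio was 0.58 without OVX_E2_PBDE, against 1.01 with it. *Wtap*, of the RNA methylation complex, had 0.249 of the OVX level (0.15 to 0.424) from 28 OVX UMIs. In OVX_E2 alone, the kinase gene *Cdk4* had 2.82 times the OVX level (1.7 to 5.55), at 65.1, 194, 107, 88.9 and 60.6 CPM, so the level in OVX_E2_P4_PBDE was no higher than in OVX. The heat-shock gene *Hspa1a* had 0.387 of the OVX level in OVX_E2 (0.311 to 0.478), and its log2 ratio was -1.37 in members and -1.18 in fibroblast barcodes.

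Some of the leading genes belonged to single barcodes. *Car4*, a capillary carbonic anhydrase, had 0, 80, 10, 1 and 0 UMIs, of which 77 came from 1 OVX_E2 barcode of 52097 UMIs, the largest member. That barcode also held 70 of 107 *Cldn5* UMIs and 73 of 85 *Mest* UMIs of OVX_E2. It had 37 *Rgs5* and 71 *Gpihbp1* UMIs. Of the haemoglobin UMIs in OVX_E2_PBDE, 237 of 238 *Hbb-bs*, 97 of 97 *Hba-a1* and 90 of 90 *Hba-a2* came from 1 barcode of 6660 UMIs. When the barcode with the most UMIs of a gene was left out in each library, 7 of the 10 leading higher and 10 of the 10 leading lower genes of the pooled E2 comparison remained past 2-fold. Of the 7, *Car4* (log2 ratio 1.02), *Cldn5* (3.61) and *Trim30a* (3.12) then had no OVX UMI, so their size depends on the added UMI. *Bach1*, *AI838599* and *Tmem173* had 3, 3 and 2 OVX UMIs, of which the largest barcode held 2, 2 and 1. Their ratios without it therefore also lean on the added UMI. *Mgp* had 13 OVX UMIs, with 4 in the largest barcode. Without the OVX_E2 library the pooled log2 ratio of *Mest* was -0.09 and that of *Car4* 1.76. The *Car4* ratio then set 10, 1 and 0 UMIs against 0 in OVX, so its size also depends on the added UMI. Without OVX_E2_PBDE the log2 ratios of *Hbb-bs*, *Hba-a2* and *Hba-a1* were -0.40, -0.72 and 0.28. *Hba-a2* then had 1 UMI in the E2 libraries and 0 in OVX, so the added UMI and unequal totals set its sign.

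Of the vessel pathways, the vascular endothelial growth factor list had 0 genes past 2-fold among 5 ranked in the pooled comparison, with a median log2 ratio of -0.34. Its receptor *Kdr* measured 951, 670, 786, 879 and 779 CPM, *Flt1* measured 1016, 821, 1017, 1057 and 953 CPM, and the co-receptor *Nrp1* measured 1207, 756, 912, 899 and 805 CPM. The tip cell and sprouting list had 2 of 7 ranked genes past 2-fold lower, *Esm1* and *Igfbp3* (308, 147, 210, 98.7 and 73.6 CPM), with a median of -0.40 and 0 higher. The pooled log2 ratio of *Igfbp3*, -1.01, was between -0.97 and -0.85 without OVX_E2, OVX_E2_P4 or OVX_E2_P4_PBDE. *Igfbp3*, a carrier of insulin-like growth factors, was also lower with E2 in fibroblast barcodes, at 353, 71.2, 49.6, 63.1 and 50.9 CPM. The angiopoietin and Tie list had 0 of 6 ranked genes past 2-fold and a median of -0.13, and the list for lipid uptake 0 of 12 and -0.05. The junction list had 1 of 11, which was *Cldn5*. Against a background of 1.56% and 2.05% these are counts of 0 to 2 genes in short lists.

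Immediate early and dissociation-stress genes summed to 23028, 18867, 17087, 13972 and 18858 CPM in members and 17981, 13204, 9569, 10416 and 10808 CPM in fibroblast barcodes. Of 19 ranked genes 17 were below 1 in the pooled comparison, with 0 past 2-fold and a median of -0.34 against -0.11 over all ranked genes, and TMM shifts all ratios there by 0.12. In OVX_E2 alone 18 were below 1, with a median of -0.34 against -0.04. Of these, 2 were past 2-fold lower, *Hspa1a* and *Hsp90aa1*, beside 1.50% of all ranked genes. *Fos* measured 4348, 4173, 2677, 2192 and 3954 CPM and *Junb* 2441, 1988, 1660, 1333 and 1624 CPM. The part of tissue handling in the E2 comparisons was not tested. Steroid receptor transcripts were rare in members: *Esr1* had 5, 0, 3, 1 and 2 UMIs, *Esr2* had 0, *Pgr* had 0, 4, 3, 0 and 7, while the glucocorticoid receptor *Nr3c1* measured 182, 168, 196, 178 and 156 CPM.

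**Figure D4:**
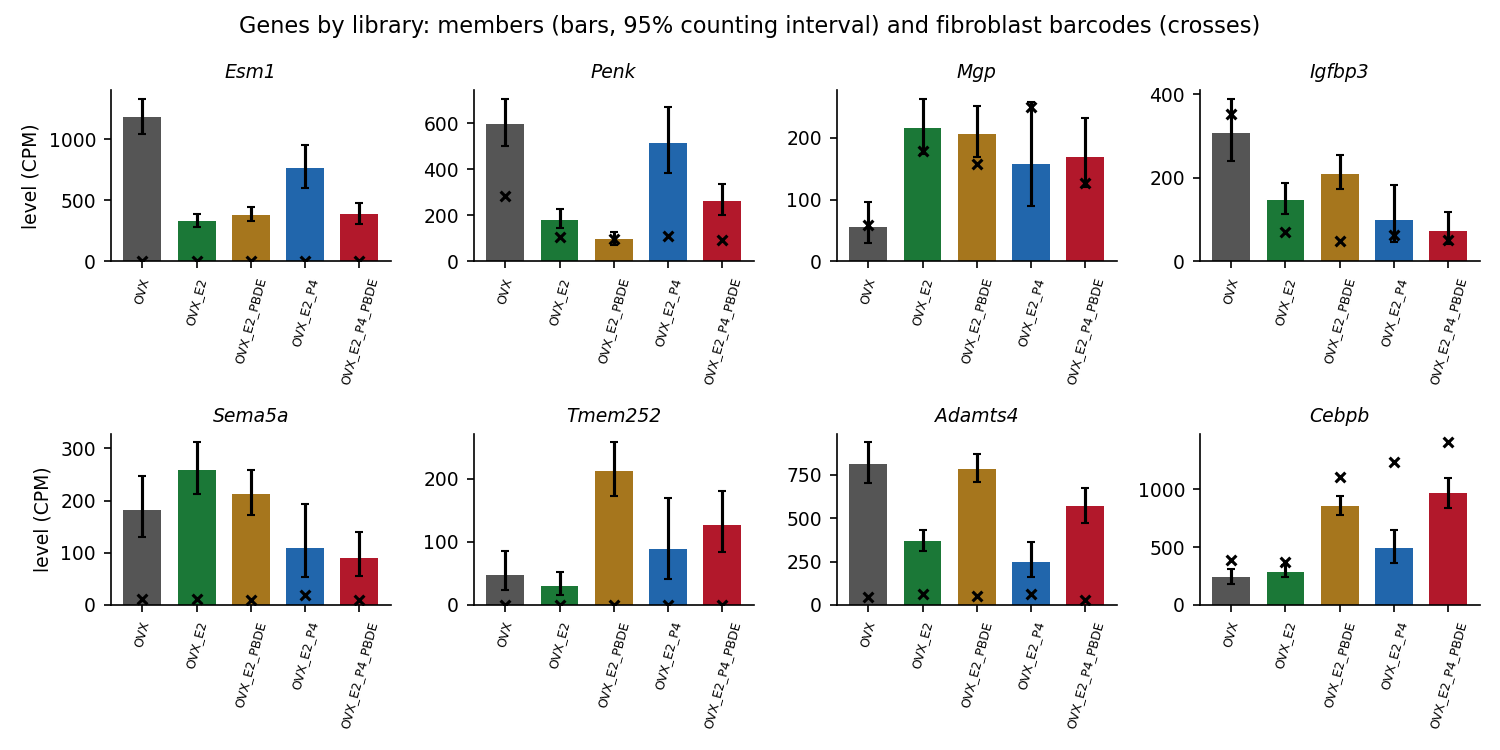
Levels (CPM) of 8 genes by library, with bars for members, 95% Poisson counting intervals as error bars, and crosses for fibroblast barcodes. *Esm1* was highest in OVX at 1181 CPM and near 0 in fibroblasts, while *Mgp* was lowest in OVX in both members and fibroblasts, and *Cebpb* was higher in OVX_E2_PBDE than in OVX_E2 in both; the OVX_E2_P4 levels of *Mgp* (158 in members, 249 in fibroblasts) and *Cebpb* (494 and 1240) differed.

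P4 was compared in the presence of PBDE, since only there did both sides have 20 members. OVX_E2_P4_PBDE (43 members) against OVX_E2_PBDE (56 members) gave 20 of 1853 ranked genes past 2-fold higher (1.08%) and 25 lower (1.35%). The split was 9 and 37 with both P4 libraries pooled against both E2 libraries without P4, 19 and 43 when each gene was counted without the barcode with its highest UMI count, and 20 and 6 with 5 UMIs added. *Igfbp3* had 17 UMIs against 102 and 0.367 of the level (0.196 to 0.588), while fibroblast barcodes had a log2 ratio of 0.05. With the wider epithelial limit described below the members' log2 ratio was -0.94, short of 2-fold. *Dll4*, the Notch ligand of tip cells and arteries, had 19, 20, 50, 4 and 8 UMIs (82.5, 46.7, 103, 39.5 and 34.6 CPM) and a ratio of 0.37 (0.138 to 0.714). Both *Dll4* comparisons that used OVX_E2_PBDE rested on its high level there, since OVX_E2_PBDE against OVX_E2 had a ratio of 2.15 (1.29 to 3.92). *Sema5a*, a semaphorin guidance protein, had 42, 111, 103, 11 and 21 UMIs (182, 259, 212, 109 and 90.9 CPM) and a ratio of 0.444 (0.254 to 0.689), with a fibroblast log2 ratio of 0.05.

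The lipid uptake list had 7 ranked genes with 0 past 2-fold in this comparison, 6 of them below 1, and a median log2 ratio of -0.64 against -0.02 over all ranked genes. *Fabp4* had a log2 ratio of -0.65, *Gpihbp1* at -0.71 and *Scarb1*, the lipoprotein receptor, at -0.77. *Cd36* was the exception at 0.11. The levels of *Fabp4* and *Gpihbp1* given above ran the other way without PBDE, being higher in OVX_E2_P4 than in OVX_E2. Both were also higher in OVX_E2_PBDE, the denominator here, than in OVX_E2. The angiopoietin and Tie list had 0 of 5 ranked genes past 2-fold and a median of -0.65, with 4 below 1 and the receptor gene *Tie1* at 0.21, and the same list had a median of 0.49 in OVX_E2_PBDE against OVX_E2, which share the library OVX_E2_PBDE. All 9 ranked genes of major histocompatibility complex class I were below 1, with a median of -0.30 and 0 past 2-fold, and 2 of 8 interferon-induced genes, *Isg15* (-1.07) and *Gbp4* (-1.06), were just past 2-fold lower, beside 1.35% of all ranked genes. Median depth per member was 5108 UMIs on one side and 8177 on the other.

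Leading genes were also read in fibroblast barcodes for the same libraries, where at least 20 UMIs allowed it. *Gm26917*, a predicted transcript, had a log2 ratio of 1.72 in members, 1.80 in fibroblast and 1.78 in epithelial barcodes. *Penk* had a ratio of 2.71 (1.83 to 4.07) in members and a log2 ratio of -0.04 in fibroblasts. Of the 10 leading higher genes of the P4 comparison 8 could be measured in fibroblasts, where 6 had the same sign and 3 were past 2-fold. Of the 10 leading lower genes 8 could be measured, and 3 had the same sign and 0 were past 2-fold. For the pooled E2 comparison 3 of 9 leading higher genes had the same sign (1 past 2-fold) and 9 of 9 leading lower genes (3 past 2-fold). For OVX_E2 alone these were 5 of 9 (1 past 2-fold) and 6 of 8 (3 past 2-fold), and for PBDE, described next, 5 of 8 (2 past 2-fold) and 8 of 8 (1 past 2-fold).

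The PBDE diet was compared on the E2 background. OVX_E2_PBDE (56 members) against OVX_E2 (39 members) gave 32 of 2393 ranked genes past 2-fold higher (1.34%) and 26 lower (1.09%). TMM factors gave 38 and 19, median-of-ratios factors 38 and 20, and leaving out, for each gene, the barcode with its highest UMI count 46 and 19. *Tmem252*, a transmembrane protein listed here as a venous marker, had 11, 13, 103, 9 and 29 UMIs (47.8, 30.3, 212, 88.9 and 126 CPM) and a ratio of 6.57 (3.92 to 13.6). It was seen in 29 of 56 OVX_E2_PBDE members and 6 of 39 OVX_E2 members, and fibroblast barcodes had at most 0.375 CPM. *Stc1*, the secreted stanniocalcin, had a ratio of 3.41 (2.14 to 6.09) and *Cck*, cholecystokinin, a ratio of 3.02 (2.19 to 4.4), with at most 0.522 and 3.68 CPM in fibroblasts. Epithelial barcodes did hold *Cck*, at 106, 50.1, 77.2, 92.3 and 77.4 CPM, with a log2 ratio of 0.62 for the same 2 libraries and OVX again above OVX_E2. For *Stc1* and *Cck* the OVX levels of 130 and 191 CPM lay above the OVX_E2 levels of 46.7 and 103 CPM. With members thinned to 3000 UMIs the *Stc1* log2 ratio of OVX_E2 to OVX was 0.25, in place of -1.46.

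*Cebpb*, a transcription factor of the CCAAT/enhancer-binding family, had 239, 287, 860, 494 and 966 CPM in members and a ratio of 2.98 (2.45 to 3.69). Fibroblast barcodes had 393, 376, 1104, 1240 and 1410 CPM, with log2 ratios of 1.55 there and 1.35 in epithelial barcodes for the same 2 libraries, beside 1.58 in members. The mitochondrial gene *mt-Nd3* had 140 CPM in OVX_E2 and 501 in OVX_E2_PBDE members, a log2 ratio of 1.82, with 0.94 in fibroblasts and 1.18 in epithelial barcodes. *Hmox1*, haem oxygenase, had a ratio of 2.58 (1.86 to 3.73) in members at 156, 107, 281, 316 and 307 CPM, and -0.19 on the log2 scale in fibroblasts. *Klf2*, a factor of shear-stressed endothelium, had 825, 917, 443, 780 and 658 CPM and a ratio of 0.485 (0.408 to 0.572). Its log2 ratio was -1.05 in members, -0.80 in fibroblasts and 0.04 in epithelial barcodes. The drug-metabolism genes *Cyp1a1*, *Cyp2b10* and *Cyp3a11* were at 0 in all members. Of 16 listed targets of xenobiotic receptors 3 were ranked, 2 of them above 1, with a median log2 ratio of 0.81 against -0.02. Of the 3, 1 was past 2-fold higher, beside 1.34% of all ranked genes.

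**Figure D5:**
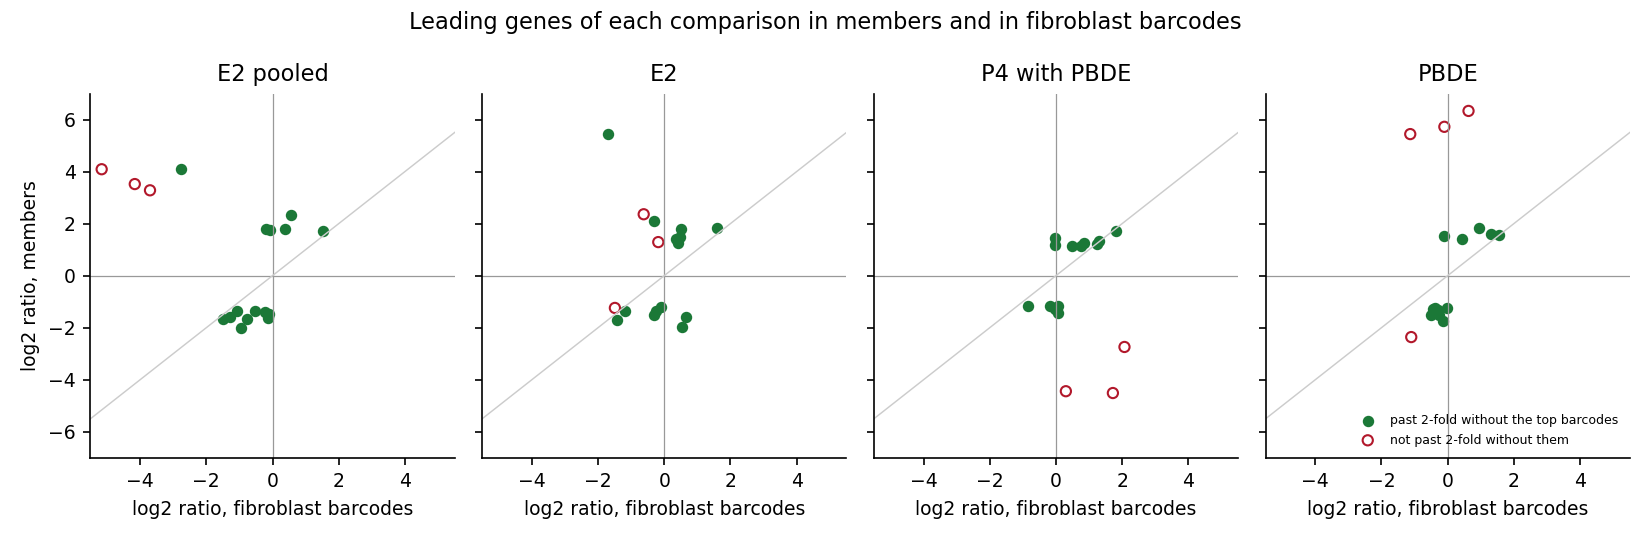
Log2 ratios of the 10 leading higher and 10 leading lower genes of each comparison in members (y axis) and in fibroblast barcodes (x axis), for genes with at least 20 fibroblast UMIs; open red circles were not past 2-fold without the top barcode of each library, and the grey diagonal marks equal ratios. The extreme points at the top and bottom were mostly open circles.

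A wider epithelial limit, below 10 per 10000 UMIs, gave 29, 41, 66, 24 and 52 members and let all 5 libraries be compared; it was chosen after seeing the data. P4 without PBDE then had 14 of 1576 ranked genes past 2-fold higher (0.888%) and 27 lower (1.71%), and P4 with PBDE 17 of 2156 higher (0.788%) and 27 lower (1.25%). Both comparisons had 1555 ranked genes in common, of which *Penk* was past 2-fold higher in both (log2 ratios 1.58 and 1.34), and *Sema5a* (-1.21 and -1.11) and *Cldn5* (-2.04 and -1.42) past 2-fold lower in both. *Sema5a* levels were 257 CPM in OVX_E2 and 191 in OVX_E2_PBDE, but 105 in OVX_E2_P4 and 85.9 in OVX_E2_P4_PBDE, with 182 in OVX, so both libraries with P4 lay below all 3 without it. The levels with P4 came from only 16 UMIs in OVX_E2_P4 and 24 in OVX_E2_P4_PBDE. In OVX_E2, 1 barcode held 22 of the 114 *Sema5a* UMIs. In the pair without PBDE, 1 barcode held 36 of 82 *Penk* UMIs of OVX_E2_P4 and 1 held 70 of 107 *Cldn5* UMIs of OVX_E2. In the pair with PBDE the largest barcodes held 18 of 62 *Penk* UMIs of OVX_E2_P4_PBDE and 13 of 58 *Cldn5* UMIs of OVX_E2_PBDE. At the original limit, with 15 members, the *Penk* log2 ratio for OVX_E2_P4 against OVX_E2 was 1.51 with the top barcodes and 0.47 without them, and with PBDE it was 1.44 and 1.21. For *Cldn5* these ratios were -2.67 and -2.17 without PBDE, and -0.72 and -1.57 with PBDE. The 107 *Cldn5* UMIs of OVX_E2 came from 6 members, and the barcode with lymphatic genes held 14 of them. The ratio without top barcodes still includes those 14.

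PBDE without P4 had 31 of 2605 ranked genes past 2-fold higher (1.19%) and 34 lower (1.31%), and PBDE with P4 had 20 of 1084 higher (1.85%) and 11 lower (1.01%). Of 1084 genes ranked in both, *Adamts4* (1.01 and 1.28) and *Bcr* (1.03 and 1.32) were past 2-fold higher in both and *Penk* (-1.04 and -1.28) lower. *Adamts4*, a protease that cleaves proteoglycans, measured 812, 366, 738, 204 and 508 CPM. Each library with PBDE lay above its partner without it, but OVX was highest, so the highest *Adamts4* level belonged to a library without PBDE. Fibroblast barcodes had 48.6, 61.3, 49, 61.3 and 28.3 CPM. *Bcr* measured 161, 142, 294, 72.4 and 193 CPM. The P4 pair and the PBDE pair use the same 4 libraries in 2 arrangements, so *Penk* in one is not separate from *Penk* in the other.

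Among themselves the members fell into no group of a single library. Clustering on 10 principal components of 2000 variable genes gave 3 sub-clusters of 69, 62 and 51 members at a resolution of 0.5, and 2 or 4 at 0.3 or 1.0. Every library had members in each of the 3. The first held 34.5%, 28.2%, 50%, 40% and 32.6% of the members by library, most in OVX_E2_PBDE. Beside haemoglobin from 1 barcode, it was led by *Rcan1* (14.9-fold over the other members), the protease gene *Adamts9* (8.86-fold), *Hmox1* (7.77-fold), *Il6* (5.92-fold) and *Adamts4* (5.56-fold), and *Tmem252* was 5.17-fold. The third was led by *Cldn5* (10.9-fold), *Mest* (5.05-fold), *Tmsb10* (3.94-fold) and *Rgs5* (2.89-fold), where the largest barcode gave 70 of 131 *Cldn5* and 73 of 84 *Mest* UMIs, and the second by *H2-M11*, *Fst* and *Pth1r*. No venous, arterial or lymphatic marker was among the first 10 genes of a sub-cluster, *Tmem252* of the venous list being 15th in the first, and none was named. Median depth was 7311, 7512 and 7271 UMIs, and mitochondrial shares were 6.19%, 5.76% and 3.84%. *Adamts4*, *Bcr*, *Hmox1* and *Tmem252* thus appear both in the PBDE comparisons and among the genes that lead the first sub-cluster, and both descriptions use the same barcodes.

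Mitochondrial transcripts took a larger share in members than in fibroblast or epithelial barcodes, with medians of 5.76%, 4.9%, 6.26%, 6.6% and 4.4%. Medians were 3.37%, 2.98%, 3.34%, 3.54% and 2.76% in epithelial and 1.75%, 1.31%, 1.44%, 2.02% and 1.23% in fibroblast barcodes. In all, 101 of 182 members were over 5%. The nuclear genes of oxidative phosphorylation had 22 ranked members in each comparison and 0 past 2-fold, beside 1.08% to 2.05% of all ranked genes in each direction. Their medians were 0.14 in the pooled E2 comparison, 0.20 for E2 alone, 0.09 for P4 with PBDE and -0.03 for PBDE. The 12 ranked mitochondrial genes had medians of -0.06, -0.27, -0.46 and 0.38. The part of RNA quality in these shares was not tested.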

How the data were processed

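The authors prepared 10x Chromium 3′ v2 libraries and deposited filtered UMI count matrices of 27998 genes for 5 libraries, made with Cell Ranger 2.0.0 on mm10 per the submitters' processing notes. The deposited counts were used as raw counts. Members and reference classes were chosen by marker sums, no doublet caller was run, and an alternative left out members with over 2 times their library's median UMIs. Counts were summed over members per library and scaled to CPM. Intervals are exact Poisson, exact (Clopper-Pearson) binomial or exact conditional binomial at 95%, and cover counting error only. With 1 library per group no p-value was computed. Genes lower in the side with more UMIs pass the minimum of 50 UMIs less often, since the deeper side contributes most of them, so higher and lower counts are not symmetric. The steps were tested on simulated counts. Named genes were the 7 markers, the 10 leading genes in each direction of each comparison, genes past 2-fold the same way in both P4 or both PBDE comparisons, the 30 genes with the highest ratios to the reference classes, and from 26 functional and 13 marker lists the most abundant genes and those past 2-fold, of which 1 is not reported here. Members and lists were chosen with earlier results of these data known. TMM factors came from edgeR 4.0.16 and clusters from scanpy 1.11.5 with leidenalg 0.10.2; other steps used Python 3.11.15, numpy 2.4.6 and scipy 1.17.1. Gene positions came from the GENCODE annotation of mm10.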

Additional observations from a re-analysis of the deposited data

Results flagged for a closer look

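Outside the 182 members, 70 barcodes held at least 4 endothelial marker UMIs and were left out by the other limits, 50 of them by the epithelial limit. Of those 50, 30 had between 5 and 10 *Epcam* and *Krt18* UMIs per 10000 and passed every other limit.

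In the whole series 8 barcodes had at least 8 UMIs of the 6 pericyte genes and fewer than 4 endothelial marker UMIs.

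With the wider epithelial limit, *mt-Nd3* had opposite log2 ratios in the 2 comparisons of P4, 1.03 without PBDE and -1.22 with PBDE, at 140 CPM in OVX_E2, 283 in OVX_E2_P4, 472 in OVX_E2_PBDE and 200 in OVX_E2_P4_PBDE. *Gm12216* had opposite log2 ratios in the 2 comparisons of PBDE, -1.49 without P4 and 1.06 with P4, from 103, 46, 11 and 45 UMIs in OVX_E2, OVX_E2_PBDE, OVX_E2_P4 and OVX_E2_P4_PBDE, with 28 of the 103 in 1 barcode. Neither difference between comparisons was tested, since each library is 1 sample.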

How the results depend on the processing

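No paired analysis was possible because each group had 1 library. Of the alternatives, 4 were chosen after seeing the data: the wider epithelial limit, the removal of top barcodes, pooling over the other treatment, and leaving each E2 library out of the E2 pool, which gave 71 to 114 genes past 2-fold in place of 132, 71 both without OVX_E2 and without OVX_E2_PBDE. Each leaves fewer UMIs, so fewer genes reached the minimum. No library could be left out of the other comparisons, which have 1 library a side. In the library order of the report, member shares at 5% mitochondrial UMIs were 0.322%, 0.94%, 0.509%, 0.161% and 1.14%, and without members with 3 or more pericyte UMIs 0.0965%, 0.179%, 0.113%, 0.0644% and 0.297%; too few members were left under these to compare genes. As shares of non-epithelial barcodes they were 4.25%, 2.78%, 2.14% and 5.39% in the 4 libraries with E2 and 1.07% in OVX.

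Counts of genes past 2-fold moved with depth and with the UMI minimum. In the order pooled E2, E2, P4 with PBDE and PBDE, 132, 49, 45 and 58 genes became 49, 8, 12 and 17 with members thinned to 3000 UMIs. They became 593, 277, 223 and 269 at a minimum of 20 UMIs, 2784, 2024, 2259 and 2045 at 1 UMI, and 10, 7, 8 and 13 at 200 UMIs. A level at least that of the highest reference class left 83 for pooled E2, no reference criterion gave 78 for E2, and 5 added UMIs gave 26 for P4 with PBDE and 38 for PBDE. The other 98 of 134 values stayed within the limits set for them, although the higher and lower splits behind some counts did not.

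Of list medians 10 moved and 1310 did not. Of the log2 ratios of named genes 54 moved, 1566 did not and 20 changed sign. Without the top barcode of each library, pooled E2 gave *Hba-a2* -2.44 and *Hbb-bs* -1.02, and E2 gave *Mest* -0.00. In this setting P4 with PBDE gave *Hbb-bs* 2.07, *Hba-a2* 1.07 and *Hba-a1* 3.65. PBDE gave *Hba-a2* -0.18, *Hbb-bs* -0.76, *Hba-a1* -0.18, *Car4* 0.82 and *Mest* 0.12. The *Hba-a2* values, and that of *Hba-a1* under PBDE, had no UMI left on either side. Only the added UMI and unequal totals set these ratios, so their change of sign has no meaning. Without members over 2 times the median UMIs, E2 gave *Odc1* -0.06 and *Dusp2* -0.61, and PBDE gave *Car4* 1.00, *Mest* 0.08, *Odc1* 0.29 and *Cldn5* 0.20. With members thinned, E2 gave *Stc1* 0.25. With 1 E2 library left out, pooled E2 gave *Hba-a2* from -0.72 to 4.70 and *Hbb-bs* from -0.40 to 4.11, the lowest without OVX_E2_PBDE. That lowest *Hba-a2* value rested on 1 UMI in the E2 libraries against 0 in OVX, so the added UMI set its sign. Members held 230246, 428518, 484817, 101277 and 230931 UMIs, and each comparison is limited by its shallower side.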
